A study of Drosophila melanogaster with 12 samples.

Results

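ORC2 sites at the replication-dependent histone gene array of Drosophila melanogaster were examined in the larval fat body at 3 stages. The array lies on chromosome 2L from 21416953 to 21541681 in Release 6, and its sites were chosen by the positions of called peaks, as every entry of 6 deposited peak lists that overlapped the array or lay within 1 kb of it. This selected 94 of the 8162 entries in all 6 lists. Because the array was picked with its peaks known, the numbers of entries at each stage are a description and were not tested. The fat bodies came from male wild-type OregonR larvae, pooled by dissection from 120 larvae per sample for the 2nd instar (67 to 68 h after egg laying) and from 60 larvae for each of the mid-3rd instar (91 to 92 h) and the wandering late-3rd instar. Each stage had 2 biological replicates of anti-ORC2 chromatin immunoprecipitation followed by sequencing (ChIP-seq) and 2 input libraries, 12 libraries in all. No genotype, mutation or treatment other than stage separated the samples. Peak lists carry no expression, so the tissue could not be checked against marker genes.

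ORC2 is a subunit of the origin recognition complex (ORC), which binds DNA and loads the replicative helicase where replication can start. Fat body cells of the larva grow by the endocycle, in which S phase alternates with a gap phase without division, and the study mapped ORC there to ask whether underreplicated regions of a further polytene tissue also lack the complex. The replication-dependent histone genes encode the proteins that package new DNA in S phase. In Drosophila they form tandem repeats, each with genes for the linker histone H1 and the core histones H2A, H2B, H3 and H4. His2A and His2B are transcribed away from each other from a shared promoter stretch, as are His3 and His4. His3-His4 promoters contain GA-rich sequence bound by the zinc finger protein CLAMP, and the histone locus body, a nuclear compartment with the scaffold protein Mxc, forms at the array.

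In the Release 6 gene table the array spans 124729 bp and holds 111 histone genes, with 23 copies each of His1, His2B and His3, 22 of His4 and 20 of His2A. Along 2L the genes of a repeat run His1, His2B, His2A, His4, His3. A repeat unit was taken from the lower-numbered end of a His1 gene to that of the next, which gives 23 units, with a median of 5045 bp between neighbouring His1 ends. The median gap was 136 bp between His1 and His2B, 128 bp between His2B and His2A (their shared promoter stretch), 365 bp between His2A and His4, and 183 bp between His4 and His3 (again a shared promoter stretch). The spacer between His3 and the next His1 is the longest, with a median of 1182 bp. Units 1, 3 and 5 have no annotated His2A and unit 23 has no annotated His4. Unit 5 is 14041 bp long and contains a stretch of 10336 bp without a histone gene. The other units before the last are 4843 to 5151 bp apart at their His1 ends.

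The merged list of each stage joins the MACS2 peaks of both replicates into regions and names the peaks of each replicate in them. At the array there were 30 regions at 2nd instar, 27 at mid-3rd and 8 at late-3rd instar. These made up 0.708% of 4239 regions at 2nd instar (95% Wilson interval 0.496 to 1.01), 1.32% of 2053 at mid-3rd (0.905 to 1.91) and 1.13% of 706 at late-3rd instar (0.575 to 2.22). The intervals treat regions as independent and cover counting error only. The number of reads behind the lists is not given in the sources used here, so depth is unknown, and a stage with fewer listed sites cannot be told apart from one with less usable signal per library.

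Counted as single MACS2 peaks, replicates 1 and 2 had 41 and 39 peaks at the array at 2nd instar, 58 and 49 at mid-3rd instar, and 3 and 6 at late-3rd instar. The mean was 40.0 ± 1.41 peaks at 2nd instar, 53.5 ± 6.36 at mid-3rd and 4.5 ± 2.12 at late-3rd instar (SD, n = 2 each). The replicates of one stage did not overlap those of another, and both mid-3rd instar replicates were the highest. With 2 replicates against 2, an exact two-sided permutation test cannot go below p = 0.333, so none was used here. Summed over the rest of each list, the order of the stages was different. There were 4236 and 3792 peaks at 2nd instar, 872 and 1945 at mid-3rd and 367 and 494 at late-3rd instar. The array therefore took 0.959% and 1.02% of the peaks of the 2nd instar replicates, 6.24% and 2.46% of those at mid-3rd and 0.811% and 1.20% of those at late-3rd instar. The high share in mid-3rd instar replicate 1 goes with the shorter list of that replicate elsewhere, and in merged regions the mid-3rd instar share was 3.18% when only regions with a replicate 1 peak were counted. Tandem arrays of ribosomal RNA genes, given below, did not follow the order of the summed lists either.

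**Figure D1:**
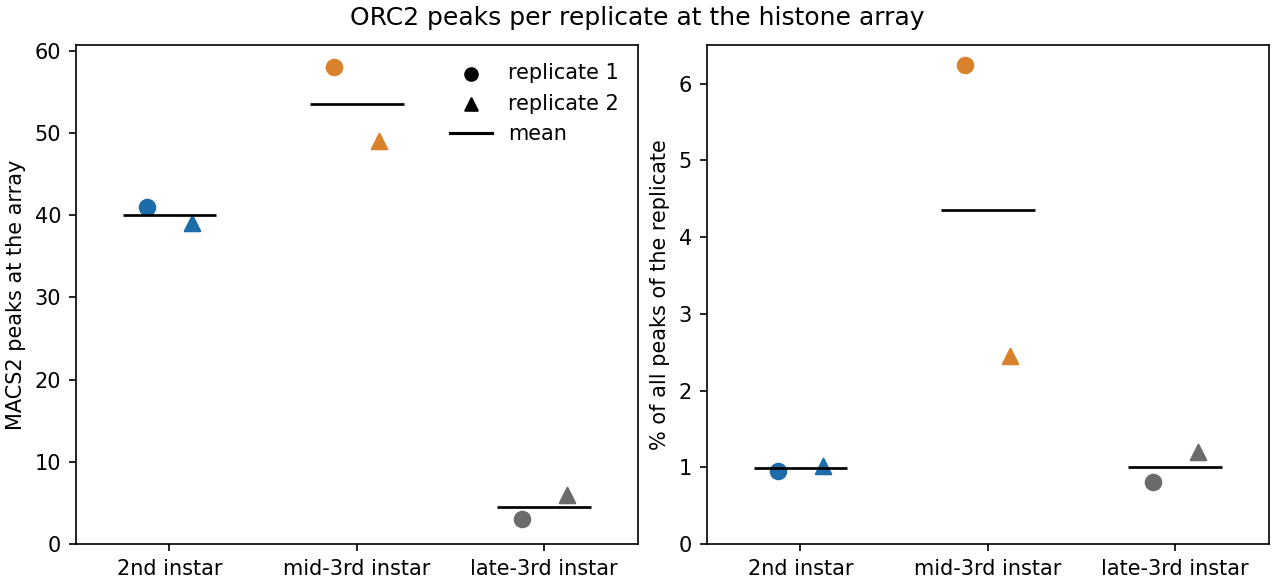
MACS2 peaks within 1 kb of the histone array in each ORC2 replicate, as a number (left panel, vertical axis) and as a percent of all peaks of that replicate (right panel, vertical axis), at 3 stages along the horizontal axis. Circles are replicate 1, triangles replicate 2 and lines the mean of both. The mid-3rd instar replicates hold 58 and 49 peaks and the late-3rd instar replicates 3 and 6.

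Replicate support separated the stages further. Peaks of both replicates were present in 24 of 30 array regions at 2nd instar (80.0%), in 26 of 27 at mid-3rd (96.3%) and in 1 of 8 at late-3rd instar (12.5%). Over the whole lists the share was 52.9% at 2nd instar, 28.3% at mid-3rd and 12.9% at late-3rd instar. The array share thus stood above that of its list at the first 2 of these stages and close to it at late-3rd instar. A region counts once any peak of each replicate is joined into it. Array regions joined more peaks than others, 2.67 against 1.91 at 2nd instar and 3.96 against 1.39 at mid-3rd instar. How far this raised the share was not tested. Of the other array regions, 4 at 2nd instar held peaks of replicate 1 only and 2 of replicate 2 only. At mid-3rd instar the single remaining region held a replicate 2 peak, and at late-3rd instar 2 regions rested on replicate 1 and 5 on replicate 2.

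Array regions were also wide and rich in peaks at the first 2 stages. The median region was 1738 bp wide at the array and 616 bp elsewhere at 2nd instar, 2035 bp at the array and 600 bp elsewhere at mid-3rd instar, and 600 bp in both places at late-3rd instar. A width of exactly 600 bp, which recurs throughout the lists, was found in 5 array regions at 2nd instar, 1 at mid-3rd and 7 of the 8 at late-3rd instar. Each array region joined 2.67 MACS2 peaks on average at 2nd instar and 3.96 at mid-3rd instar, against 1.91 and 1.39 for the rest of those lists. At late-3rd instar the average was 1.13 at the array and 1.23 elsewhere. Together the regions covered 40.2% of the array at 2nd instar, 49.9% at mid-3rd and 4.06% at late-3rd instar. With regions of both replicates alone, these values were 36.6%, 49.5% and 0.693%.

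Density in regions per 100 kb was 24.1 at the array and 3.77 on the rest of 2L at 2nd instar, 20.9 at the array and 1.83 elsewhere at mid-3rd instar, and 6.41 at the array and 0.644 elsewhere at late-3rd instar. The 100 kb to the left of the array held 8, 5 and 3 regions at these stages and the 100 kb to the right 4, 3 and 2. In 1103 windows of the array's length laid end to end over the rest of the genome, the fullest had 22 regions at 2nd instar and 16 at mid-3rd instar. The array had 30 and 27 with its 1 kb margins. It was picked with its peaks known and its limits fit the cluster, while the windows lay on a fixed grid. Its rank among them is therefore a description only. At late-3rd instar 11 windows held 8 or more, up to 18 on chromosome 4. The nearest protein-coding genes other than histone genes, nrv3 (a subunit of the sodium pump) 23633 bp to the left and Lamp1 31707 bp to the right, lay beyond the cluster. A region lay within 1 kb of nrv3 at 2nd instar only, and within 1 kb of Lamp1 at 2nd and mid-3rd instar.

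By gene type, the copies on which merged regions lay formed a pattern within the repeat. All 22 His4 genes, which encode the core histone H4, were overlapped by a region at 2nd instar and all 22 at mid-3rd instar, against 4 at late-3rd instar. For His3 (histone H3) the copies overlapped were 17, 23 and 5 of 23 by stage. For His2A (histone H2A) they were 15, 20 and 0 of 20. For His2B (histone H2B) they were 15, 22 and 1 of 23. The linker histone gene His1 had the fewest under merged regions at the first 2 stages, with 11 and 13 of 23 copies, and 3 at late-3rd instar. High-confidence peaks did not show this. At 2nd instar they overlapped 11 copies of His1, 10 of His2A, 11 of His3 and 12 each of His2B and His4. At mid-3rd instar they overlapped 4 of His1, 2 of His2A, 3 of His2B, 10 of His4 and 11 of His3. The first His4 copy overlapped along 2L was His4:CG33909 and the last His4:CG33869 at both earlier stages, so regions ran from the first annotated copy to the last. At late-3rd instar they ran from His4:CG33905 to His4:CG33883.

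**Figure D2:**
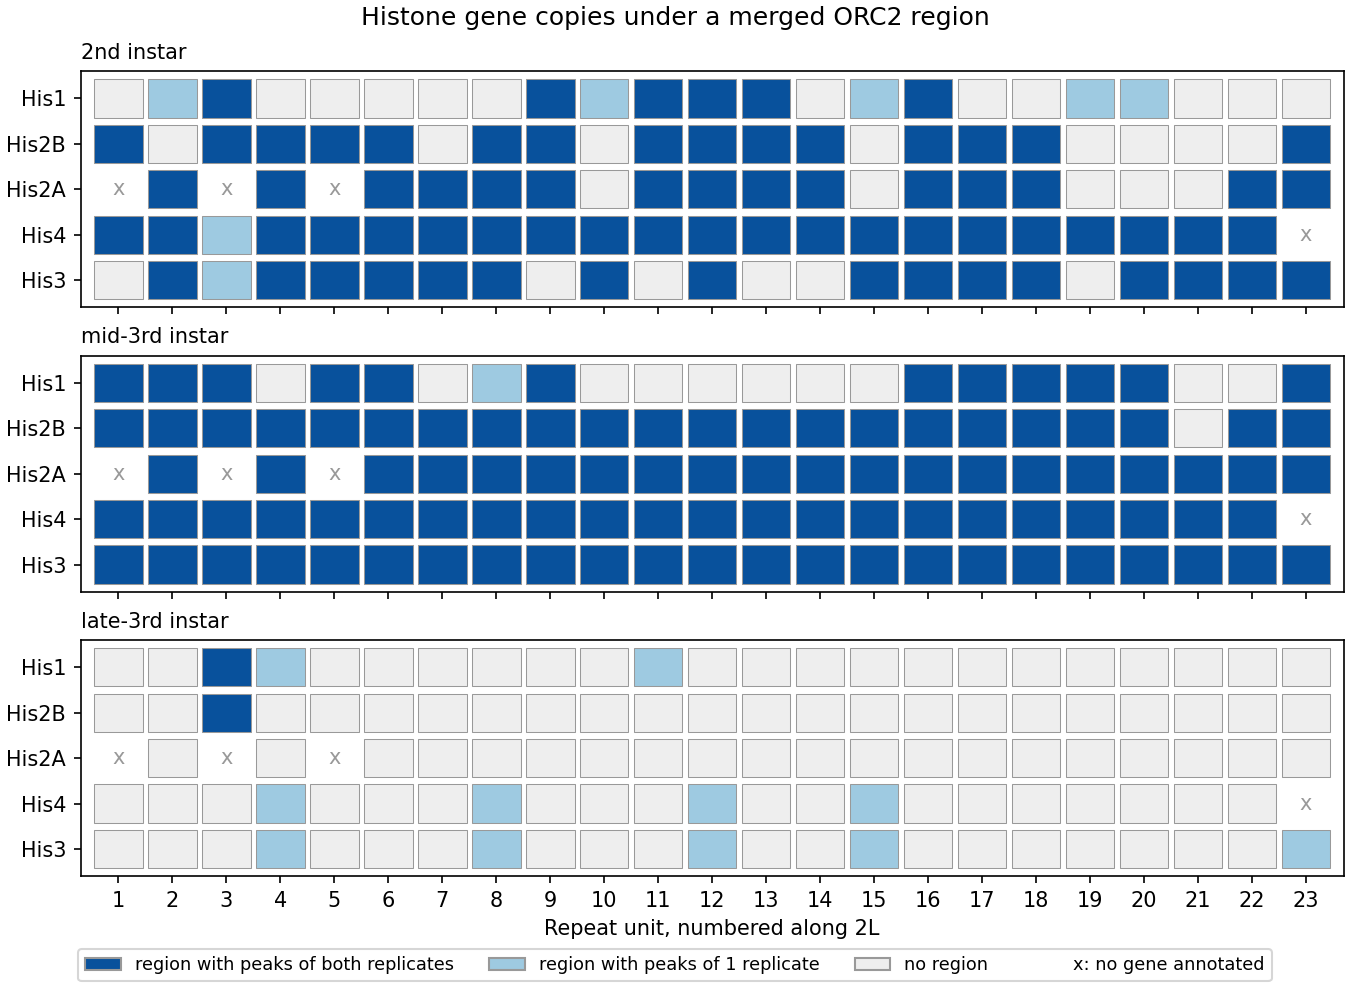
Histone gene copies under a merged ORC2 region in each repeat unit (horizontal axis, 23 units in order along 2L) for each gene type (rows) and stage (panels). Dark squares are copies under a region with peaks of both replicates, light squares those with peaks of 1 replicate, grey squares no region, and x marks a gene that is not annotated. All 22 His4 squares are filled at 2nd and at mid-3rd instar, and 4 are filled, each by 1 replicate, at late-3rd instar.

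By copies, His4 led at 2nd instar, His4, His3 and His2A were all overlapped in full number at mid-3rd instar, and His3 had 5 copies against 4 of His4 at late-3rd instar. By bases under merged regions, the highest share was that of His4 at all 3 stages. At 2nd instar regions covered 97.1% of His4 bases, 75.0% of His2A, 41.7% of His2B, 39.1% of His3 and 32.0% of His1. At mid-3rd instar they covered 100% of His4 bases, 98.4% of His2A, 67.2% of His2B, 47.9% of His1 and 34.5% of His3. At late-3rd instar they covered 13.5% of His4 bases, 5.31% of His1, 5.28% of His3, 3.93% of His2B and none of His2A. His3 thus had every copy overlapped at mid-3rd instar but no copy covered whole. For scale, His1 genes take 18.9% of the bases of the array, His2B 11.0%, His3 9.76%, His2A 7.89% and His4 7.65%. His4 coverage at 2nd instar was 92.7% from regions of both replicates alone, and 21 of its 22 copies were still overlapped. At late-3rd instar neither the region of both replicates nor the high-confidence peak covered any His4 base. Under 2nd instar high-confidence peaks the shares lay closer together. They were 51.9% for His4, 50.9% for His2B, 49.8% for His2A, 43.4% for His1 and 38.9% for His3. At mid-3rd instar these peaks covered 43.3% of His4 bases, again the highest share.

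Between the genes, the stretch from His4 to His3 that holds their shared promoter was covered over 93.2% of its bases at 2nd instar, 100% at mid-3rd and 21.5% at late-3rd instar. The promoter stretch of His2B and His2A was covered over 73.9%, 98.8% and 0% at those stages, and the stretch from His2A to His4 over 81.7%, 100% and 0%. From His1 to His2B the values were 26.2%, 50.6% and 8.81%. The long spacer from His3 to the next His1 was covered over 3.42% at 2nd instar, 2.55% at mid-3rd and 0% at late-3rd instar. In the wider spacer of unit 5, which that value leaves out, a mid-3rd instar region covered 184 of 10336 bp and none did so at the other stages.

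Laid over each other from the His1 end, all 23 units were covered at 2960 to 3150 bp at 2nd instar, which is the last part of His4. At mid-3rd instar all 23 were covered at 1790 to 2210 bp, from the promoter stretch between His2B and His2A into His2A. At least 22 were covered there from 1650 to 3290 bp, which takes in His4. The unit not covered between 2220 and 3290 bp was unit 23, which has no annotated His4. At late-3rd instar the most units covered at any place was 4, at 2970 to 3350 bp, from His4 through the promoter stretch to the start of His3. At the lower-numbered end of His1, 5 units were covered at 2nd instar, 10 at mid-3rd and 0 at late-3rd instar. The profile of every stage reached 0 in the spacer after His3.

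**Figure D3:**
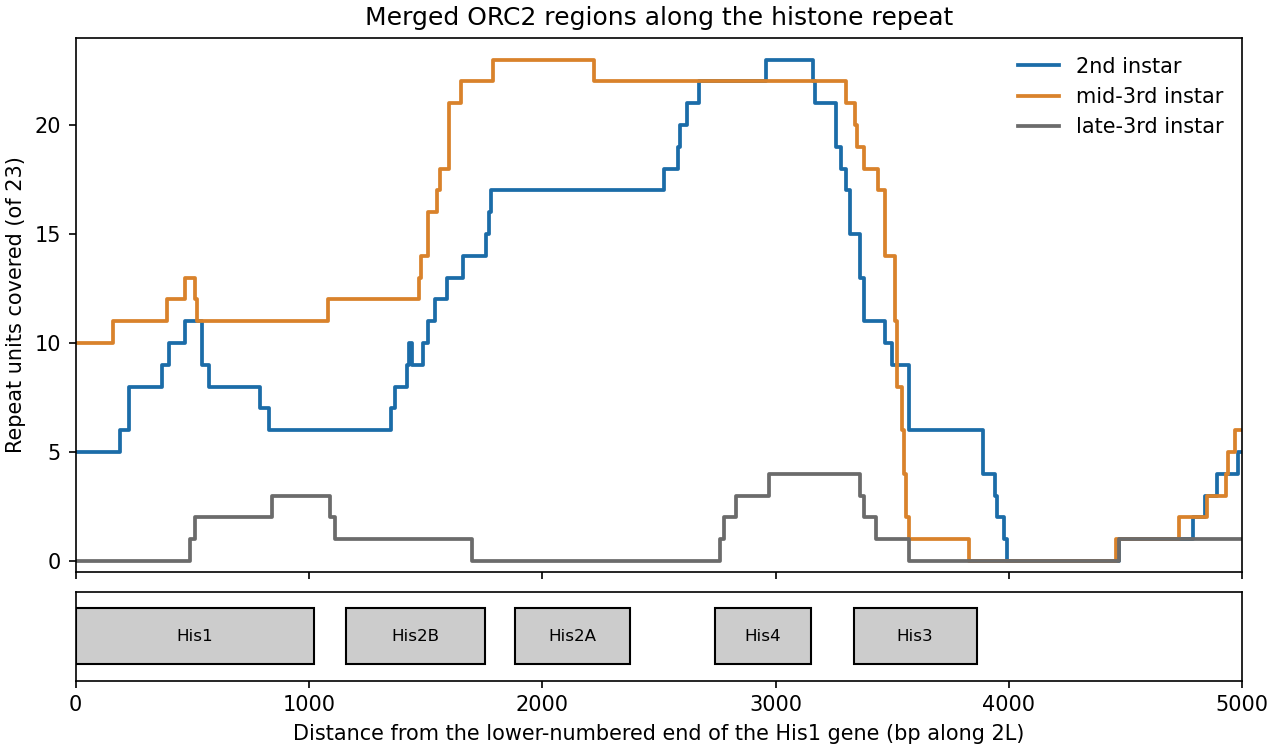
Number of the 23 repeat units covered by a merged ORC2 region (vertical axis) at each distance in bp from the lower-numbered end of His1 (horizontal axis), for 3 stages, with the median gene positions as boxes below. The 2nd instar line reaches 23 units at 2960 to 3150 bp and the late-3rd instar line 4 units at 2970 to 3350 bp. The mid-3rd instar line reaches 23 units at 1790 to 2210 bp and is at 22 or 23 from 1650 to 3290 bp.

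Every one of the 23 units was touched by a region with peaks of both replicates at 2nd instar and at mid-3rd instar. A read that matches several near-identical units is placed on one of them. A full count of units or gene copies therefore does not show that each was bound. Regions with a replicate 1 peak touched all 23 at both stages, as did regions with a replicate 2 peak. Where the peaks of a single replicate lie within a merged region is not given. At late-3rd instar 7 units were touched, 3 by regions with a replicate 1 peak, 5 by regions with a replicate 2 peak and 1 by a region of both. With all peaks of a region counted in the unit of its midpoint, the median unit held 3 MACS2 peaks at 2nd instar (range 2 to 5). It held 4 at mid-3rd (3 to 6) and 0 at late-3rd instar (0 to 2). The median length covered in a unit was 1973 bp, 2496 bp and 0 bp at these stages. The midpoints of neighbouring regions were a median of 3857 bp apart at 2nd instar, 4975 bp at mid-3rd and 12833 bp at late-3rd instar. Spacings of 4000 to 6000 bp, around the length of a unit, made up 13 of 29 at 2nd instar, 19 of 26 at mid-3rd and 1 of 7 at late-3rd instar. Shorter spacings of 1500 to 3500 bp made up 12, 6 and 1.

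The high-confidence lists hold peaks with an irreproducible discovery rate (IDR, low where a peak ranks high in both replicates) under 0.1. At the array they held 13 peaks at 2nd instar, 15 at mid-3rd and 1 at late-3rd instar. These were 1.63% of 797 peaks (95% Wilson interval 0.956 to 2.77), 4.89% of 307 (2.98 to 7.90) and 1.67% of 60 (0.295 to 8.86). Every one of these peaks lay on a merged region of its stage. In the other direction 14 of 30, 13 of 27 and 1 of 8 merged regions lay on a high-confidence peak. The median IDR was 0.0247 at the array and 0.0345 elsewhere at 2nd instar, 0.0527 at the array and 0.0419 elsewhere at mid-3rd instar, and 0.0350 for the late-3rd instar peak against a median of 0.0464 elsewhere. Array peaks ranked 92 to 721 in the 2nd instar list, 87 to 304 at mid-3rd and 19 at late-3rd instar, so none was among the very first of its list. With the limit at an IDR of 0.05, 8, 7 and 1 remained.

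At 2nd instar the high-confidence peaks took in most of a repeat unit. Their median width was 3549 bp (617 to 3781), against 924 bp for the rest of the list, and 8 of the 13 overlapped all 5 gene types. Of these peaks 11 started within 300 bp of the lower-numbered end of His1, a limit chosen after the positions had been seen, at 44 to 267 bp from it. They ended a median of 3687 bp from the same point, which falls within His3. The peak with the lowest IDR, 0.000874, ran from 21432014 to 21435787 and overlapped 1 copy of each gene type, and so did those from 21461227 to 21464887 (IDR 0.00277) and from 21481612 to 21485021, at 0.00631. The highest IDR values were 0.0869 for the peak from 21466379 to 21469875, again on all 5 types, and 0.0741 for the peak from 21501696 to 21504002 on His1, His2B and His2A. The widest peak, 3781 bp, ran from 21451115 to 21454895. The narrowest, 617 bp from 21494154 to 21494770, lay on His4:CG33885 alone.

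At mid-3rd instar the high-confidence peaks were shorter and most lay at His4 and His3. Their median width was 997 bp (498 to 3076), against 644 bp for the rest of the list. Of the 15, 10 overlapped both His4 and His3, 9 of them with no other histone gene. Across the 15 peaks, 11 touched His3, 10 His4, 4 His1, 3 His2B and 2 His2A, whereas of the 13 peaks at 2nd instar 11 touched His3, 12 His4, 11 His1, 12 His2B and 10 His2A. The lowest IDR, 0.0233, belonged to the peak from 21494166 to 21494975 on His4 and His3. The next were a pair in unit 12, from 21484143 to 21485139 on His4 and His3 at 0.0236 and from 21482722 to 21483718 on His2B and His2A at 0.0252. The highest values, 0.0980 and 0.0974, belonged to peaks on His4 and His3 from 21519487 to 21520641 and from 21424616 to 21425702. The widest ran from 21417433 to 21420508 at the first unit and the narrowest, 498 bp, from 21426925 to 21427422 on His1:CG33804 alone.

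**Figure D4:**
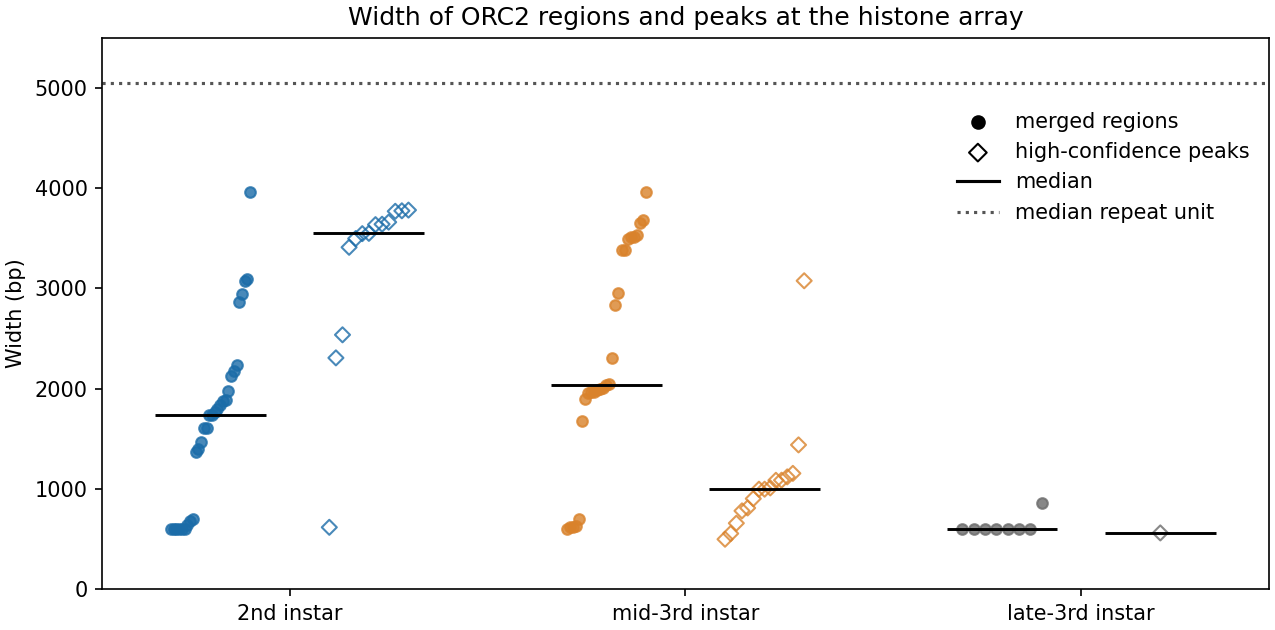
Width in bp (vertical axis) of each merged region (filled circles) and high-confidence peak (open diamonds) at the histone array at 3 stages, sorted within each set, with black lines for the medians and a dotted line for the median repeat unit of 5045 bp. The 2nd instar high-confidence peaks have a median of 3549 bp and those of mid-3rd instar 997 bp, while the merged regions have medians of 1738 bp and 2035 bp.

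The late-3rd instar high-confidence peak lay from 21427811 to 21428371, with an IDR of 0.0350 and a width of 561 bp. It overlapped His1:CG33804 and His2B:CG33908 in unit 3, neither His4 nor His3. It fell on the late-3rd instar region with peaks of both replicates, from 21427749 to 21428612, which was singled out for that support after its values had been seen. Among the 8 late-3rd instar regions 5 overlapped His3, 4 of those also His4, and 3 overlapped His1. The regions on His4 and His3 each had a peak of 1 replicate only.

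The 2 kinds of list differed in extent at all 3 stages, at the array and elsewhere. Of the bases under array high-confidence peaks at 2nd instar, 37.0% lay outside any merged region of that stage, against 34.1% for the rest of the list. At mid-3rd instar the values were 16.7% at the array and 27.5% elsewhere, and at late-3rd instar 0% and 33.3%. The late-3rd instar array peak, 561 bp wide, lay inside a merged region of 864 bp. His1 was affected in particular, since 6 of the 11 His1 copies under a 2nd instar high-confidence peak were under no merged region of that stage. Widths and gene overlaps are therefore given for each list on its own.

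Sites were compared between stages by position, with peaks within 1 kb taken as shared. All 30 merged regions of the 2nd instar had a mid-3rd instar region within 1 kb, and 25 of the 27 mid-3rd instar regions had one of the 2nd instar. All 8 late-3rd instar regions had a neighbour at each earlier stage, while 8 of 30 regions at 2nd instar and 7 of 27 at mid-3rd instar had one at late-3rd instar. By bases, 83.6% of those covered at 2nd instar were covered at mid-3rd instar, and 67.3% of those at mid-3rd instar were covered at 2nd instar. Of the late-3rd instar bases, 78.9% were covered at 2nd instar and 76.1% at mid-3rd instar. Among high-confidence peaks, 8 of 13 at 2nd instar had a mid-3rd instar peak within 1 kb and 10 of 15 at mid-3rd instar had one of the 2nd instar. By unit, 13 units held such a peak at 2nd instar and 13 at mid-3rd instar, with 8 in common, and no unit held one at all 3 stages. Beside these shares stands the part of the array that regions covered at all, 40.2% at 2nd instar and 49.9% at mid-3rd instar. Those parts leave out the 1 kb margins. With merged regions in every unit at both of these stages, a high share within 1 kb was close to fixed in advance, so nothing is concluded from it.

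All 111 histone genes of the array had a merged region within 1 kb at 2nd instar and at mid-3rd instar, and 20 (18.0%) had one at late-3rd instar. Among all 17807 annotated nuclear genes the shares were 30.9% at 2nd instar, 17.9% at mid-3rd and 4.8% at late-3rd instar. A high-confidence peak lay within 1 kb of 62, 48 and 2 histone genes of the array (55.9%, 43.2% and 1.8%), against 8.14%, 3.02% and 0.264% of all genes. Histone genes share regions, so their counts are not independent, and the array was selected on these peaks.

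None of 6 histone genes outside the array had a merged region within 1 kb at any stage. These were His2Av (the H2A variant that also serves the role of H2A.X), His3.3A and His3.3B (both H3.3, deposited outside S phase), His4r (a histone H4 gene outside the array), BigH1 (the embryonic linker histone) and cid (the centromeric H3). Of 8 genes for factors of the histone locus body or of histone mRNA processing, 1 had a region at each stage. It was Clamp, which encodes the CLAMP protein, on 2L from 22165720 to 22169143, with peaks of both replicates at 2nd and mid-3rd instar and a high-confidence peak at 2nd instar only. The other 7 were mxc, mute, Slbp (which binds the histone mRNA stem loop), Lsm10, Lsm11 and snRNA:U7 (parts of the U7 particle that processes histone mRNA) and FLASH. Over all 17807 annotated genes, 30.9% had a region within 1 kb at 2nd instar, 17.9% at mid-3rd and 4.8% at late-3rd instar. Lists of 6 and 8 genes are too short to be told apart from those shares.

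As other tandem arrays, the 100 annotated 5S ribosomal RNA genes had 0 merged regions at 2nd instar, 9 at mid-3rd and 3 at late-3rd instar, and the 16 ribosomal RNA genes of the X had 8, 9 and 8. High-confidence peaks numbered 0, 3 and 0 at the 5S genes and 8, 7 and 9 at those of the X. In MACS2 peaks of replicates 1 and 2, the 5S genes were also highest at mid-3rd instar. They had 0 and 0 at 2nd instar, 24 and 11 at mid-3rd and 2 and 1 at late-3rd instar. Those of the X had 9 and 8, 11 and 9, and 12 and 11 at these stages. The histone array had 8 regions at late-3rd instar, against 30 and 27 before, while the ribosomal RNA genes of the X had 8 there, a difference between the arrays that was not tested.

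At the 1 kb limit, 1 merged region at mid-3rd instar lay outside the array, 988 bp past its end from 21542670 to 21543294, and overlapped the histone pseudogene His-Psi:CR31614. All other members overlapped the array itself. The nearest entries left out were merged regions 9759 bp to the right at 2nd instar and 10146 bp to the right at late-3rd instar. At mid-3rd instar the nearest one left out lay 19207 bp to the left. Repeat units are near-identical in sequence, and a read that matches several of them is placed on one of its best matches by default in Bowtie2. Which copy a peak belongs to is therefore uncertain, and counts of copies or units are those of the lists as called. The lists hold no reads, so the part played by such placement, by the number of repeats in this strain or by endocycle copy number was not tested.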

How the data were processed

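The authors aligned paired-end reads with Bowtie2, called peaks against input with MACS2, replicate by replicate, at a q-value limit of 0.05, and deposited merged regions and high-confidence peaks with an IDR under 0.1 for each stage. The deposited IDR score of each peak is the authors' own value. The merged lists hold positions and peak names with no score. The labels and the study's methods name dm3, but positions in the lists match Release 6, so gene positions of Release 6 (RefSeq) were used and nothing was converted. That gene table holds no strand.

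Entries within 1 kb of the array were counted by stage, replicate, gene type and repeat unit. Genes and units were overlapped from 1 bp, and spacing was taken between midpoints. Wilson intervals of 95% were used for shares. No test was run, since the members and gene lists were chosen with earlier results of these data known. Named peaks were all high-confidence peaks of a stage with 5 or fewer, otherwise the 3 of lowest and 2 of highest IDR, the widest and the narrowest, and named copies were the first and last touched. Alternatives were the distance, only regions with a peak of a given replicate, the IDR limit, peak starts and the other list. The windows, the profile along the repeat and coverage by replicate were added after the data had been seen. Sequence comparisons of the repeats were not run. Interval functions were tested on simulated data. Scripts ran under Python 3.11.15 with scipy 1.17.1, pandas 2.3.3, numpy 2.4.6 and matplotlib 3.10.9.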

Additional observations from a re-analysis of the deposited data

How the results depend on the processing

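Of 96 alternative values for 36 results, 68 stayed within 1.5 times the main value or within its interval. Array regions with a peak of a given replicate numbered 26 to 28 at 2nd instar, 26 to 27 at mid-3rd and 3 to 6 at late-3rd instar. At late-3rd instar 1 region had both replicates. Such regions may also hold peaks of the other replicate, so these are not counts from a replicate on its own. Counted in the same way, the share of the merged list was 0.813 to 0.856% at 2nd instar, 1.49 to 3.18% at mid-3rd and 0.912 to 1.28% at late-3rd instar. With an IDR limit of 0.05, 8 high-confidence peaks were left at 2nd instar and 7 at mid-3rd instar. High-confidence peaks overlapped 56, 30 and 2 histone genes at the 3 stages; their midpoints lay in 9, 7 and 1, merged regions overlapped 80, 100 and 13, and 48 lay within 1 kb at mid-3rd instar. High-confidence spacing at 2nd instar was 7566 bp, against 3857 bp for merged regions. The median place of these peaks from the His1 end was 1938 bp by midpoint and 63 bp by start. Units with a high-confidence peak numbered 13, 13 and 1, and those with a merged region 23, 23 and 7. With only regions holding a peak of a given replicate, they numbered 23, 23 and 3 to 5. The late-3rd instar high-confidence peak had a 2nd instar peak within 5 kb (1 of 1) but not within 1 kb, and overlapped 0 mid-3rd instar peaks directly. At late-3rd instar His4 copies under a region with a peak of a given replicate were 1 to 3, and 0 with both. Such regions covered 1.66 to 3.10% of the array, and those with both 0.693%. No paired analysis was possible because no result came from a test. The cause of these changes was not tested. Depth is unknown, and at late-3rd instar 7 of 8 regions had peaks of 1 replicate.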
